A study of Mus musculus with 10 samples.

Results

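The 34 genes described here are the enzymes and transporters of glycolysis and the core genes of the response to low oxygen, measured in regenerating mouse digit tips. They were chosen from a list of symbols, matched on the gene names of the deposited table of 21729 protein-coding genes, and all 34 were found and passed the filter on low counts. RNA came from blastemas, growths of dividing cells from which an amputated digit tip is rebuilt. The libraries also held RNA of keratinocyte and nail matrix markers, as described below. The ΔLARM1/2 mutants lack the enhancers LARM1 and LARM2, which drive the dorsal limb gene Lmx1b, and they were compared with wild type mice. The groups were mutants at 12 days post amputation (dpa, 3 libraries), wild type at 12 dpa (2 libraries), mutants at 14 dpa (3 libraries) and wild type at 14 dpa (2 libraries). Mice had a mixed CD1 C57Bl/6 background and were 33 days old at 12 dpa and 35 days old at 14 dpa. Each library pooled 6 amputated central digits of the hindlimb, so a library does not stand for a single digit. The labels name no further allele or treatment.

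Glycolysis turns glucose into pyruvate in the cytosol. Lactate dehydrogenase then reduces pyruvate to lactate, which monocarboxylate transporters carry out of the cell, while pyruvate dehydrogenase kinases hold pyruvate back from the mitochondria. Hypoxia-inducible factors (HIFs) are transcription factors whose alpha subunits, Hif1a, Epas1 and Hif3a, are hydroxylated by the prolyl hydroxylases Egln1, Egln2 and Egln3 when oxygen is present, bound by Vhl and degraded. When oxygen is low, the alpha subunits pair with Arnt and bind DNA at the core sequences ACGTG and GCGTG, and most glycolytic genes are among their targets. The main control of HIF alpha subunits is on protein stability, which RNA does not measure. The digit tip blastema is known to pass through a low-oxygen phase during its regeneration.

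Promoter sequences of 6 genes are shown so that the HIF core sequence in them can be seen: Adm and Hif1a changed most over both days, Egln1 was higher on both, Slc16a3 and Car9 were more than 2-fold lower at 14 dpa, and Ldha had the most matches of these 6 windows. Each run is the 250 bases before the annotated start, 5′ to 3′ on the gene's own strand, from RefSeq on GRCm38.p6. Capitals mark ACGTG or GCGTG read on either strand. The palindrome CACGTG holds the first of these on both strands, and such overlapping matches were counted on each strand. The windows lie at chr7:110627407-110627656 on the plus strand for Adm, chr12:73907617-73907866 on the plus strand for Hif1a and chr8:124949255-124949504 on the minus strand for Egln1. They lie at chr11:120948817-120949066 for Slc16a3, chr4:43506776-43507025 for Car9 and chr7:46845554-46845803 for Ldha, all on the plus strand.
Adm: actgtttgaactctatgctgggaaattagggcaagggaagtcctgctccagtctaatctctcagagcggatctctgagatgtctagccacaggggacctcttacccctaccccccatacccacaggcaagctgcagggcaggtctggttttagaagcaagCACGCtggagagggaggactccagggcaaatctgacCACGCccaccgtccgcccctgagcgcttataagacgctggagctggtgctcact
Hif1a: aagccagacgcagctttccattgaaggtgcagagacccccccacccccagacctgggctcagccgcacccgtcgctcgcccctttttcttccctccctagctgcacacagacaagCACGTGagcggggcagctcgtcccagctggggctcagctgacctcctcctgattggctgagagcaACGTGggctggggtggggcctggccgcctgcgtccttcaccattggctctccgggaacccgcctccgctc
Egln1: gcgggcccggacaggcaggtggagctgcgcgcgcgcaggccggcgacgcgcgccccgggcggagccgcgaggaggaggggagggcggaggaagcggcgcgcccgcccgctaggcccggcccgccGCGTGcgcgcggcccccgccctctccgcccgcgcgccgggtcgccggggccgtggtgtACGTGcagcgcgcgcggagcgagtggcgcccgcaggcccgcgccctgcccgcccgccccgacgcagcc
Slc16a3: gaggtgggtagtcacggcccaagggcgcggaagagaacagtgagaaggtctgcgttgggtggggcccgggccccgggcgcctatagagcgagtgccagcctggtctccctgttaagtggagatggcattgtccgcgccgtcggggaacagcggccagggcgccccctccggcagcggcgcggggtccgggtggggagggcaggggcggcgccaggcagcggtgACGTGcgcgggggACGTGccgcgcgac
Car9: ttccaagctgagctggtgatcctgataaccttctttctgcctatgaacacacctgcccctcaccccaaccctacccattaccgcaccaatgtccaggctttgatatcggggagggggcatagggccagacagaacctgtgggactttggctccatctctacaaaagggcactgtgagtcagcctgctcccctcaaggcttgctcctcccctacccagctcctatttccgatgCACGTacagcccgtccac
Ldha: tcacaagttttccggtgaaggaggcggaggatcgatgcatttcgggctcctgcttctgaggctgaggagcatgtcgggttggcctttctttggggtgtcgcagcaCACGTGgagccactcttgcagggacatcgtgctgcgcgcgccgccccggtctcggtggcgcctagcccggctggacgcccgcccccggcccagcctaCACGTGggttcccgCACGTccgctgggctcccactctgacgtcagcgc
Of the 34 genes, 30 had a promoter in the RefSeq table, and Ndrg1, Bhlhe40, Epas1 and Bnip3l had none there. At least 1 match to ACGTG or GCGTG on either strand was found in 26 of these 30 genes (86.7%), against 11226 of 27025 genes in the table (41.5%). The exceptions were Car12, Gpi1, Tpi1 and Vhl. ACGTG alone was found in 16 of the 30 (53.3%), against 18.5% of all genes. A gene with several annotated starts was counted if any of its windows matched. By window, either motif was found in 31 of 42 (73.8%), against 38.6% of all windows. ACGTG was found in 42.9% of the 42 windows, against 16.6% of all windows. The windows of the glycolysis and hypoxia genes had a median GC content of 62.8%, against 52.4% over all windows, and both motifs hold a CG pair. The Ldha window, shown for its number of matches, had 5, which include 2 CACGTG palindromes counted on both strands. A window at another annotated start of Ldha had 1 match. Car9 had 1 match, which began 18 bases before the start. A match describes the letters of the window and is neither a bound site nor a cause.

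The libraries held between 69998104 and 101632364 expected counts. Lmx1b, the gene whose enhancers were deleted, stood at 0.0278 to 0.336 CPM (counts scaled to the library total) in the 6 mutant libraries and at 1.69 to 2.94 CPM in the 4 wild type libraries. Mutant 14 dpa replicate 1, so named by its title, bears a wild type genotype tag, but its Lmx1b level of 0.234 CPM lay within the mutant range, and it was kept as mutant. Each group held 1 female library. Marker RNA of many cell types differed between genotypes. Over both days all 14 endothelial markers tested, 12 of 14 blastema fibroblast markers, 13 of 14 nail matrix markers and 8 of 11 osteoblast and chondrocyte markers were lower in mutants, and 10 of 15 keratinocyte and 4 of 9 neutrophil markers were higher (edgeR adjusted p under 0.05). Of all genes, 22.2% were lower and 21.5% higher by the same test. At 14 dpa the neutrophil markers were split, with 3 higher, among them S100a8 and S100a9, and 3 lower, the granule genes Ngp, Camp and Ltf. Of the 9 tested, 4 changes were positive and 5 negative on that day, with a median log2 fold change of -0.025. A sum over this list therefore does not stand for each of its genes. The summed keratinocyte markers stood at 37820 to 57250 TPM (counts scaled by gene length and library total) in mutants and at 18520 to 26890 TPM in wild type, and the neutrophil markers at 119 to 2075 TPM in mutants and at 10.6 to 42.6 TPM in wild type. The summed fibroblast markers stood at 493 to 2037 TPM in mutants and at 2823 to 5870 TPM in wild type, and the endothelial markers at 15.7 to 42.4 TPM in mutants and at 65.9 to 97.3 TPM in wild type. No summed range of these 4 lists overlapped between genotypes. The summed macrophage markers did overlap, at 16.5 to 58.7 TPM in mutants and 29.2 to 45.7 TPM in wild type, although 6 of 10 were lower. The osteoclast markers overlapped as well, at 77.5 to 902 TPM in mutants and 83.5 to 243 TPM in wild type, and 0 of 7 passed. Sums of the erythroid and skeletal muscle markers also overlapped. In bulk tissue, fewer cells of a type and less RNA per cell cannot be told apart, and the part of these markers in the results below was not tested.

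In the mutant libraries, which are bulk tissue, Adm was at 0.37 and Hif1a at 0.443 of the wild type level over both days. The other HIF-system genes that changed, Epas1, Vhl, Egln1 and Egln3, were higher. Among glycolytic enzymes, the phosphofructokinase gene Pfkp fell to 0.646 of the wild type level in the count-based fit, and the other glycolytic genes that passed changed less. Over both days 15 of the 34 genes passed the test (edgeR quasi-likelihood, Benjamini-Hochberg adjusted p under 0.05), 9 higher (background 21.5%) and 6 lower (background 22.2%); under upper quartile scaling 15 also passed, split into 6 higher and 9 lower. That is 44.1% of the list, and 43.7% of all 20216 genes tested passed the same test, so the share of changed genes was close to the background. Changes beyond 2-fold were carried by 2 of the 34 genes (5.88%), both lower, against 18.3% of all genes in either direction and 13.9% lower, and the median absolute log2 fold change was 0.333, against 0.439 over all genes. At 12 dpa 4 genes passed (11.8%, background 16.5%), 1 of them higher (background 7.18%) and 3 lower (background 9.34%). At 14 dpa 15 passed (44.1%, background 33.3%), 7 of them higher (background 16.1%) and 8 lower (background 17.2%). The libraries of the genotypes did not overlap in 13 of 34 genes at 12 dpa (background 51.7%), in 24 at 14 dpa (background 62.4%), and on both days in the same direction in 10 (background 37.2%). Those 10 were Gpi1, Pfkp, Pgam1, Egln1, Adm, Hif1a, Epas1, Vhl, Kdm3a and Mxi1.

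**Figure D1:**
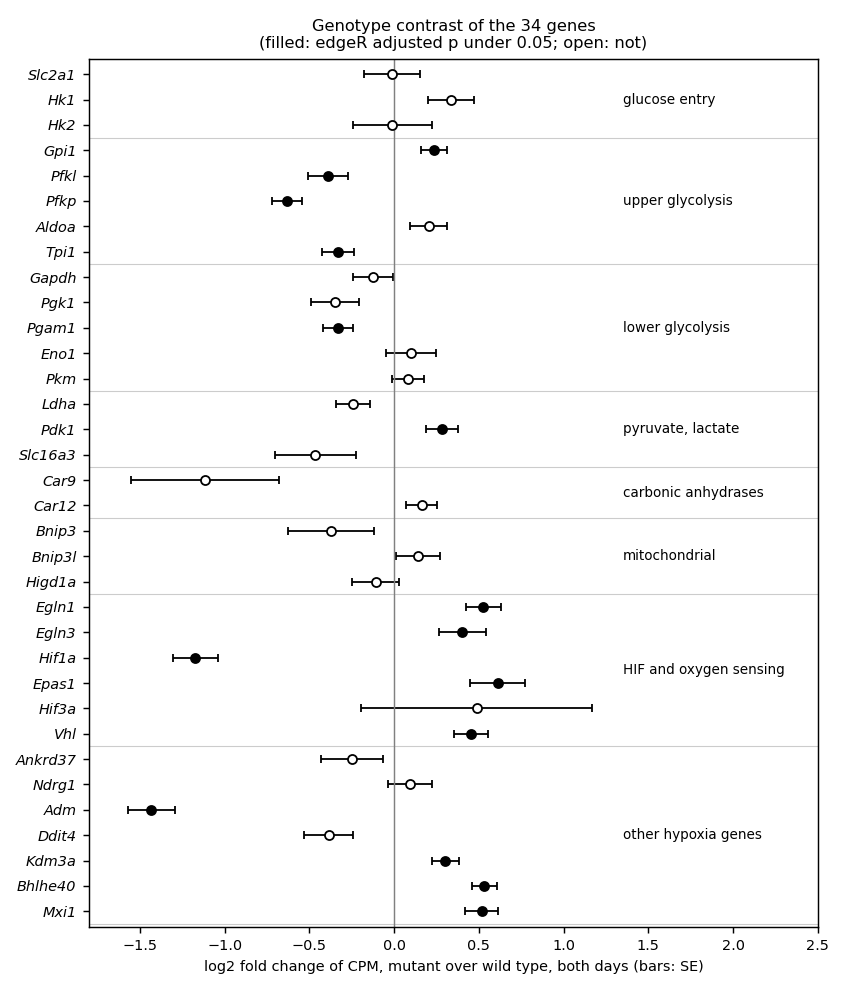
Log2 fold change of CPM in mutants over wild type, averaged over both days, for the 34 genes grouped by role. Bars are the standard error, filled points passed the edgeR test and open points did not; Adm at -1.43 and Hif1a at -1.17 are the only filled points beyond -1.

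Hif1a encodes the alpha subunit of HIF-1. Its level was 53.3, 46.5 and 65.5 TPM in mutants and 78.5 and 122 TPM in wild type at 12 dpa. At 14 dpa it was 32.4, 34.2 and 34.7 TPM in mutants and 52.7 and 91.1 TPM in wild type. Every mutant library lay below both wild type libraries of its day. On the count scale Hif1a averaged 229 ± 35.0 CPM in mutants (SD, n = 6) and 515 ± 93.9 CPM in wild type (SD, n = 4), a log2 fold change of -1.17 (SE 0.131, edgeR adjusted p = 0.000255). By day, the change was -1.10 (SE 0.186) with an adjusted p of 0.00579 at 12 dpa, and -1.24 (SE 0.186) with an adjusted p of 0.00243 at 14 dpa. Part of the reads of Hif1a were shared with other genes, since its expected counts were not whole in any library.

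Epas1 encodes HIF-2 alpha and is known for its expression in endothelium. It had 28.9, 37.2 and 40.3 TPM in mutants and 20.8 and 19.4 TPM in wild type at 12 dpa. Its values at 14 dpa were 45.7, 27.5 and 25.4 TPM in mutants and 16.1 and 17.0 TPM in wild type. All mutant libraries lay above the wild type libraries of their day, with mutant 14 dpa replicate 1 highest. Its log2 fold change over both days was 0.61 (SE 0.161, edgeR adjusted p = 0.0132), opposite in sign to that of Hif1a and to that of the endothelial markers. Hif3a, the third alpha subunit, had between 1 and 57 counts per library, with 5 to 41 in mutants and 1 to 57 in wild type, and it did not pass the test (log2 fold change 0.49, SE 0.681, adjusted p = 0.587).

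Of the genes that act on the alpha subunits, Vhl, Egln1 and Egln3 were higher in mutants over both days. At 12 dpa alone Vhl (edgeR adjusted p = 0.0757) and Egln3 (edgeR adjusted p = 0.525) did not pass. Vhl, which recruits the ubiquitin ligase to hydroxylated HIF, had 21.1, 15.9 and 16.4 CPM in mutants and 13.0 and 13.9 CPM in wild type at 12 dpa, then 21.6, 21.1 and 24.1 CPM in mutants and 15.9 and 15.5 CPM in wild type at 14 dpa. The groups did not overlap on either day, and the log2 fold change over both days was 0.45 (SE 0.1, adjusted p = 0.00572). Egln1, the main prolyl hydroxylase, had 132, 137 and 120.1 CPM in mutants and 79.0 and 94.96 CPM in wild type at 12 dpa, and 129, 103 and 112 CPM in mutants and 74.4 and 90.5 CPM in wild type at 14 dpa. Again all mutant libraries were higher, by 0.53 (SE 0.102, adjusted p = 0.00325). Egln3, a prolyl hydroxylase that HIF itself induces, had 360.2, 335 and 235 CPM in mutants and 266 and 276 CPM in wild type at 12 dpa, where the groups overlapped. At 14 dpa it had 309, 318 and 249 CPM in mutants and 211 and 171 CPM in wild type with no overlap, and the change over both days was 0.40 (SE 0.139, adjusted p = 0.0406).

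**Figure D2:**
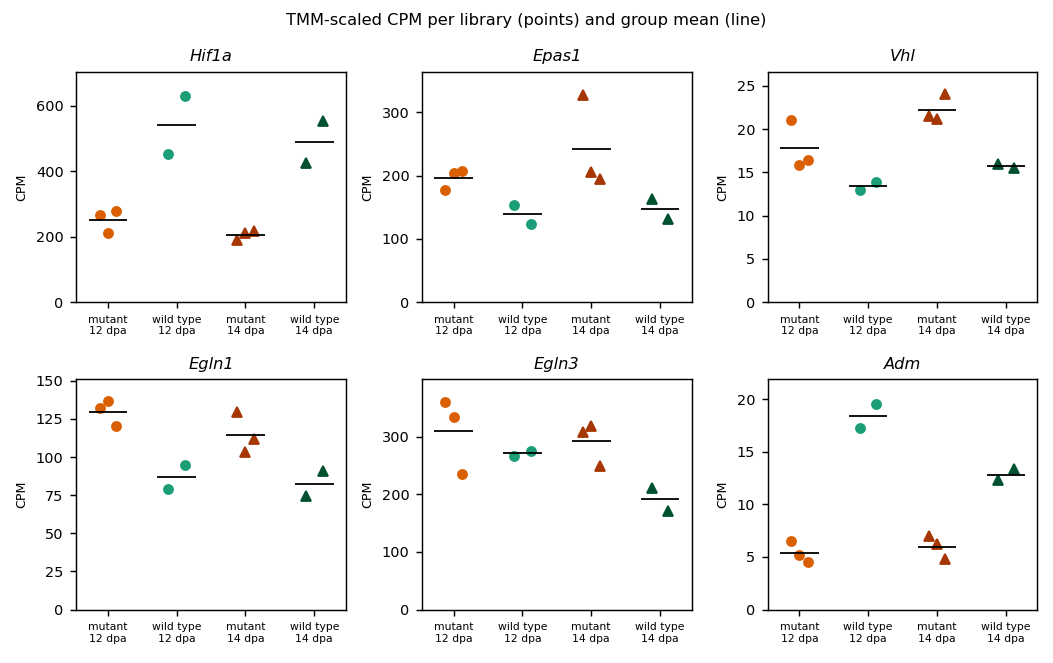
TMM-scaled CPM of 5 HIF-system genes and of Adm in each library (points) with group means (lines), on axes that start at 0. At both times the mutant libraries lie below the wild type libraries for Hif1a and Adm and above them for Epas1, Vhl and Egln1, while those of Egln3 overlap at 12 dpa.

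Among the other hypoxia genes, Adm had the strongest change of the list over both days. It encodes adrenomedullin, a vasodilator peptide. Adm had 4.89, 4.49 and 4.0 TPM in mutants and 11.0 and 13.8 TPM in wild type at 12 dpa. At 14 dpa it had 4.56, 3.87 and 2.86 TPM in mutants and 5.59 and 8.13 TPM in wild type. The mutant libraries stood apart below the wild type libraries at both times, although the gap in TPM between mutant 14 dpa replicate 1 and wild type 14 dpa replicate 1 was narrow. In CPM, Adm averaged 5.7 ± 1.01 in mutants (SD, n = 6) and 15.6 ± 3.36 in wild type (SD, n = 4), a log2 fold change of -1.43 (SE 0.139, edgeR adjusted p = 0.000133). By day, it was -1.76 (SE 0.197) with an adjusted p of 0.00107 at 12 dpa, and -1.10 (SE 0.196) with an adjusted p of 0.00456 at 14 dpa.

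Bhlhe40 and Mxi1, transcriptional repressors of the helix-loop-helix class, rose. Bhlhe40 had 179, 185 and 199 CPM in mutants and 171 and 179.5 CPM in wild type at 12 dpa, where the groups overlapped, and 268, 252 and 266 CPM in mutants and 136 and 132 CPM in wild type at 14 dpa, where they stood far apart. Its log2 fold change was 0.10 (SE 0.104) with an adjusted p of 0.539 at 12 dpa, and 0.96 (SE 0.107) with an adjusted p of 0.000906 at 14 dpa. Mxi1, an antagonist of Myc, had 88.2, 96.5 and 80.6 CPM in mutants and 77.2 and 75.1 CPM in wild type at 12 dpa, and 124, 97.4 and 97.7 CPM in mutants and 64.3 and 56.5 CPM in wild type at 14 dpa. Mutants were higher on both days, by 0.22 (SE 0.137) with an adjusted p of 0.296 at 12 dpa, and by 0.82 (SE 0.139) with an adjusted p of 0.00385 at 14 dpa. Kdm3a, a histone H3 lysine demethylase, was higher by 0.30 over both days (SE 0.078, adjusted p = 0.0117). The stress gene Ddit4, an inhibitor of mTORC1 (-0.39, SE 0.146, adjusted p = 0.055), Ankrd37 (-0.25, SE 0.181, adjusted p = 0.288) and Ndrg1 (0.09, SE 0.13, adjusted p = 0.595) did not pass.

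Glucose entry genes showed no change past the test. Slc2a1, the glucose transporter GLUT1, had 100.5, 118 and 86.8 TPM in mutants and 53.5 and 101 TPM in wild type at 12 dpa. Its values at 14 dpa were 46.3, 57.1 and 43.5 TPM in mutants and 39.7 and 49.1 TPM in wild type. The genotypes overlapped on both days, and the log2 fold change of CPM was -0.01 (SE 0.164, adjusted p = 0.96). The hexokinase genes, which phosphorylate glucose, had changes of 0.33 for Hk1 (SE 0.135, adjusted p = 0.0694) and -0.01 for Hk2 (SE 0.232, adjusted p = 0.976).

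In upper glycolysis, from glucose 6-phosphate to the triose phosphates, 1 of 5 genes was higher and 3 were lower, against 21.5% higher and 22.2% lower among all genes, too few genes to read a share from. Pfkp, the platelet-type phosphofructokinase, which catalyses the committed step, had 147, 156 and 165 CPM in mutants and 250.3 and 241 CPM in wild type at 12 dpa. Its values at 14 dpa were 135, 168 and 136 CPM in mutants and 231 and 213 CPM in wild type. Every mutant library was lower than every wild type library, and the log2 fold change was -0.63 over both days (SE 0.09, adjusted p = 0.000739). It was -0.66 (SE 0.127) with an adjusted p of 0.0101 at 12 dpa, and -0.61 (SE 0.127) with an adjusted p of 0.00804 at 14 dpa. The liver-type Pfkl had 97.6, 87.7 and 73.9 CPM in mutants and 86.1 and 106 CPM in wild type at 12 dpa, with overlap, and 49.1, 68.7 and 57.7 CPM in mutants and 92.5 and 88.9 CPM in wild type at 14 dpa, without overlap. It was lower over both days by -0.39 (SE 0.118, adjusted p = 0.0222). Tpi1, triosephosphate isomerase, was lower by -0.33 (SE 0.093, adjusted p = 0.0176), Gpi1, glucose-6-phosphate isomerase, was higher by 0.23 (SE 0.078, adjusted p = 0.0342), and the aldolase gene Aldoa did not pass (0.20, SE 0.109, adjusted p = 0.153).

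In lower glycolysis, from glyceraldehyde 3-phosphate to pyruvate, Pgam1 alone of 5 genes passed (background 43.7%). Pgam1, a phosphoglycerate mutase, had 286, 249 and 234 CPM in mutants and 308 and 307 CPM in wild type at 12 dpa, and 208, 233 and 235 CPM in mutants and 301 and 295 CPM in wild type at 14 dpa. All mutant libraries were lower, by -0.33 over both days (SE 0.086, adjusted p = 0.0122). Gapdh, glyceraldehyde-3-phosphate dehydrogenase and a common reference gene, had 549, 625 and 780.1 TPM in mutants and 376 and 462 TPM in wild type at 12 dpa. At 14 dpa it had 232, 400.3 and 234 TPM in mutants and 296 and 352 TPM in wild type. In TPM the mutant libraries were all higher at 12 dpa and lay on both sides of the wild type libraries at 14 dpa. In CPM they overlapped wild type at 12 dpa and were all lower at 14 dpa, at 321, 455 and 345 CPM in mutants and 515 and 465 CPM in wild type, and the change over both days was -0.12 (SE 0.118, adjusted p = 0.423). Pgk1, phosphoglycerate kinase, and Pkm, the muscle-type pyruvate kinase, did not pass, with changes of -0.35 (SE 0.141, adjusted p = 0.0687) and 0.08 (SE 0.094, adjusted p = 0.498).

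Eno1, the enolase of this step, shares reads with its near-identical copy Eno1b, and the division of reads between them differed between libraries. Eno1b took 3.48% to 3.69% of the reads of the pair in 3 libraries, 20.1% to 21.8% in 5 and 35.8% and 36.2% in the remaining pair of libraries. The 3 libraries with low shares were mutant 12 dpa replicate 2, mutant 14 dpa replicate 1 and wild type 14 dpa replicate 1, and those with high shares were mutant 14 dpa replicate 2 and wild type 12 dpa replicate 1, so the classes cut across genotype and day. Eno1 alone ranged from 446 to 760.0 CPM, while the sum of the pair ranged from 693 to 863 CPM. Eno1 had a log2 fold change of 0.10 (SE 0.148, adjusted p = 0.608), and the sum had 0.05 (SE 0.091, adjusted p = 0.679), a smaller standard error. The sum was chosen after the values were seen.

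**Figure D3:**
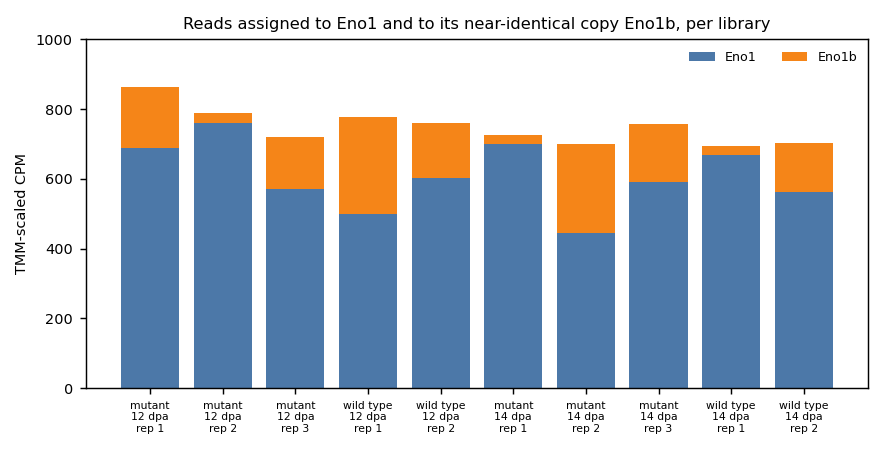
Stacked bars of TMM-scaled CPM assigned to Eno1 and to Eno1b in each of the 10 libraries. The total height runs from 693 to 863 CPM, while the Eno1b part is near 3.6% in 3 libraries, near 20% to 22% in 5 and near 36% in the others.

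At the end of the pathway stands Ldha, the lactate dehydrogenase subunit with a promoter window shown above. It had 395, 379 and 369.5 TPM in mutants and 317 and 344 TPM in wild type at 12 dpa. Its values at 14 dpa were 228, 237 and 262 TPM in mutants and 228 and 303 TPM in wild type. In TPM mutants were higher at 12 dpa and overlapped wild type at 14 dpa. In CPM they overlapped at 12 dpa and were all lower at 14 dpa, at 401, 432 and 492 CPM in mutants and 576 and 572 CPM in wild type, and the change over both days was -0.24 (SE 0.102, adjusted p = 0.0791). Pdk1, the kinase that inhibits pyruvate dehydrogenase, was higher by 0.28 (SE 0.093, adjusted p = 0.0327), with 93.8 to 113 CPM in mutants and 77.2 to 95.8 CPM in wild type. Slc16a3, the lactate exporter MCT4, had 26.6, 14.7 and 27.5 CPM in mutants and 16.6 and 26.5 CPM in wild type at 12 dpa, and 4.86, 8.97 and 7.70 CPM in mutants and 16.4 and 12.8 CPM in wild type at 14 dpa. It overlapped at 12 dpa and not at 14 dpa, where it was lower by -1.02 (SE 0.337, adjusted p = 0.0455). That call was lost without a count filter (adjusted p = 0.0821), with the sex covariate (0.0657) and with limma on log2(TPM + 1) (0.133) or log2(TPM + 0.1) (0.0963).

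Car9, a membrane carbonic anhydrase often used as a marker of HIF activity, was rare here. It had 1.63, 0.37 and 0.79 TPM in mutants and 0.4 and 0.73 TPM in wild type at 12 dpa. Its values at 14 dpa were 0.13, 0.13 and 0.09 TPM in mutants and 0.39 and 0.63 TPM in wild type. The genotypes overlapped at 12 dpa, whereas at 14 dpa the mutant libraries, with 15, 33 and 9 counts, were all below the wild type libraries, with 91 and 160 counts. The log2 fold change at 14 dpa was -2.76 (SE 0.636, adjusted p = 0.012), the largest of the 34 genes on that day, and over both days it was -1.12 (SE 0.435, adjusted p = 0.0623). Car12, the other membrane carbonic anhydrase, did not pass (0.16, SE 0.091, adjusted p = 0.173), nor did the mitophagy receptor genes Bnip3 (-0.37, SE 0.256, adjusted p = 0.264) and Bnip3l (0.14, SE 0.13, adjusted p = 0.41) or Higd1a, a mitochondrial inner membrane protein gene (-0.11, SE 0.138, adjusted p = 0.544).

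Leaving out each library in turn, 8 of the 15 calls over both days held in all 10 cases: Adm, Hif1a, Bhlhe40, Egln1, Mxi1, Pfkp, Pgam1 and Vhl. Tpi1 was lost without wild type 12 dpa replicate 2, Kdm3a without wild type 14 dpa replicate 1, Pfkl without either of these libraries and Epas1 without replicate 2 of wild type at 12 dpa or at 14 dpa. Pdk1 was lost in 5, Egln3 in 7 and Gpi1 in 8 of the 10 cases, and without wild type 12 dpa replicate 2 the count of calls was 9. At 12 dpa Adm alone held throughout, since Hif1a was lost without wild type replicate 2 (adjusted p = 0.0604), Pfkp without either wild type library, and Egln1 without either wild type library or mutant replicate 1 or 2; 1 call was left without wild type replicate 2 and 2 without wild type replicate 1. At 14 dpa Adm, Hif1a, Bhlhe40 and Mxi1 held throughout, Car9 was lost without wild type replicate 2 (adjusted p = 0.0572) and Pfkp without wild type replicate 1 (adjusted p = 0.0629). The other 9 calls at 14 dpa were lost without either wild type library of that day, and Pfkl, Vhl, Pgam1, Egln1, Slc16a3, Epas1, Egln3 and Kdm3a also without 1 or more of the other libraries. The count at 14 dpa was 5 without either wild type library and 9 without mutant replicate 1, the library with the wild type tag, or mutant replicate 3. Without the tagged library 13 genes passed over both days. Under upper quartile scaling the calls of Gpi1, Pdk1 and Egln3 over both days were lost. So were those of Vhl, Egln1, Egln3, Epas1 and Kdm3a at 14 dpa. With limma on log2(TPM + 1) Pfkp lost its call at 12 dpa. At 14 dpa Car9, Pfkp, Pfkl, Tpi1, Pgam1, Slc16a3 and Kdm3a lost theirs on that scale. Gpi1, Pdk1, Vhl and Epas1 gained a call there at 12 dpa, and Aldoa, Bnip3l and Pdk1 at 14 dpa.

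Levels between genes can be set side by side only per length, in TPM. Gapdh ranked first with a mean of 431 TPM over all libraries, followed by Aldoa with 407, Pkm with 374, Ldha with 306 and Eno1 with 272. The genes from Aldoa to Ldha averaged 115 TPM or more, whereas Slc2a1, the highest of the glucose entry and phosphofructokinase genes, averaged 69.5 TPM. Among regulators, Egln3 had 88.0 TPM and Hif1a 61.1 TPM, while Vhl had 6.01, Adm 6.31, Car9 0.529 and Hif3a 0.101 TPM. Neighbours such as Gapdh and Aldoa overlapped widely across libraries.

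**Figure D4:**
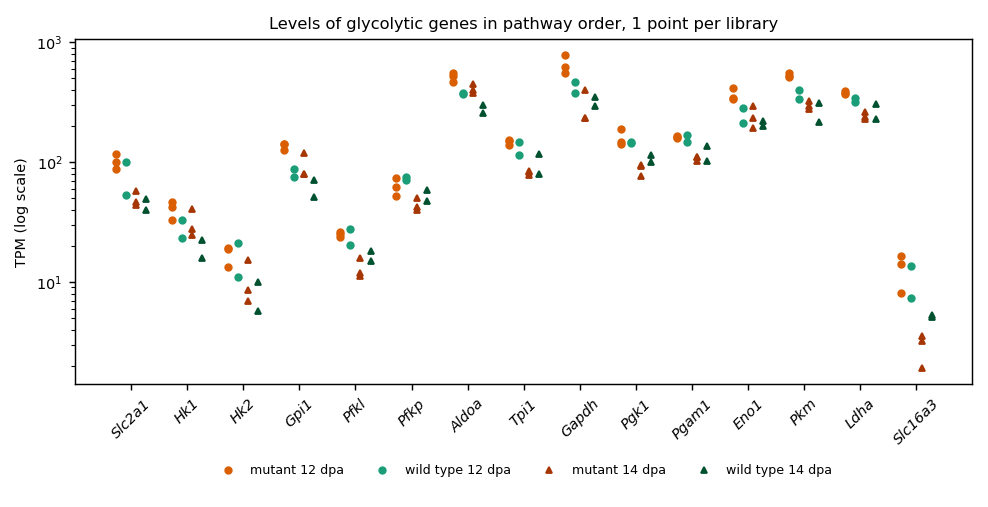
TPM on a log axis of 15 genes of glucose uptake, glycolysis and lactate export, in pathway order, with 1 point per library and groups by colour and marker. The levels of Aldoa, Gapdh, Eno1, Pkm and Ldha are the highest, and Slc16a3 is the lowest at 14 dpa in mutants.

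The calls among the glycolytic genes depended on the scale, and neither scale measures absolute amounts of RNA. Summed over the 34 genes, the level was 4086 to 4323 TPM in mutants and 2999 to 3499 TPM in wild type at 12 dpa, and 2598 to 2832 TPM in mutants and 2145 to 2714 TPM in wild type at 14 dpa. In TMM-scaled CPM the sums were 6876 to 7956 in mutants and 7070 to 7645 in wild type at 12 dpa, and 6436 to 6747 in mutants and 6816 to 6959 in wild type at 14 dpa. With limma on log2(TPM + 1), where the median of all genes was 0.139, 16 genes were called, 14 higher and 2 lower, in place of 9 higher and 6 lower. The 2 lower genes were Adm (-1.004) and Hif1a (-0.92) on that scale. The lower calls of Pfkp (-0.24, limma adjusted p = 0.16), Pfkl (-0.13, adjusted p = 0.45), Tpi1 (-0.04, adjusted p = 0.83) and Pgam1 (-0.05, adjusted p = 0.753) were lost, and Hk1, Aldoa, Pkm, Bnip3l and Ndrg1 were called higher. Relative to the median of all genes, the differences of these 4 lower genes in log2(TPM + 1) were -0.38 for Pfkp, -0.27 for Pfkl, -0.18 for Tpi1 and -0.19 for Pgam1. The sign of the change differed between the scales for 6 of the 34 genes, none of them called in the count-based fit. Epas1, Vhl, Egln1 and Egln3 were called higher on both scales.

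Whether the genotype difference itself changed between the days was tested by the difference of the contrasts, 14 dpa minus 12 dpa. No member passed by edgeR (background 0% of 20216 genes), 6 had an unadjusted p under 0.05, as did 1763 of all 20216 genes, and DESeq2 called 1, Bhlhe40 (log2 difference 0.86, adjusted p = 3.73e-06; background 0.237%). In the edgeR fit the difference was 0.87 for Bhlhe40 (SE 0.147, adjusted p = 0.544) and -3.28 for Car9 (SE 0.899, adjusted p = 0.544). The other 4 were Mxi1 at 0.60, Adm at 0.66, Gapdh at -0.54 and Slc16a3 at -1.11. Where a gene passed at 14 dpa and not at 12 dpa, as Car9 and Slc16a3 did, the edgeR test therefore did not separate the days.

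**Figure D5:**
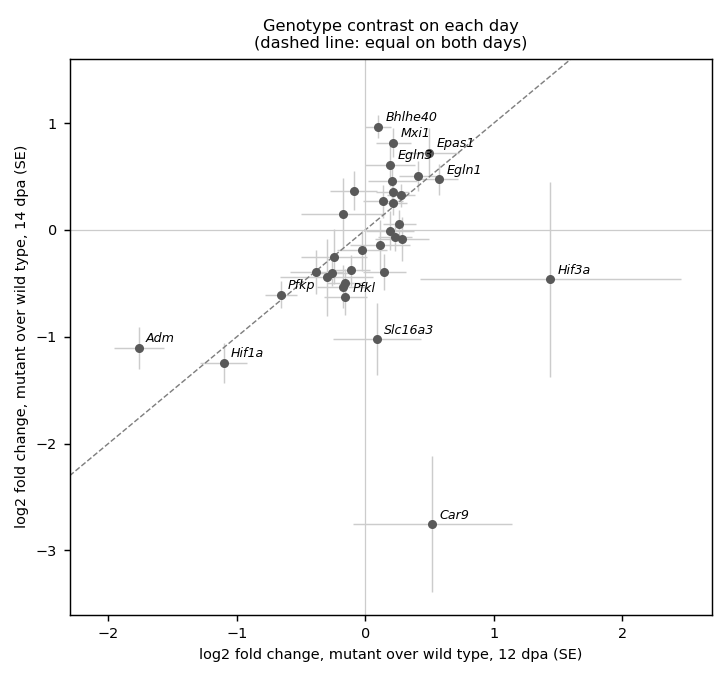
Log2 fold change of mutants over wild type at 12 dpa (horizontal) against 14 dpa (vertical) for the 34 genes, with standard errors as grey bars and equality as a dashed line. Hif1a lies near the line at -1.10 and -1.24, and Car9 lies farthest from it at 0.52 and -2.76.

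Within mutants, 14 dpa was compared with 12 dpa. No member passed by edgeR (background 0.0346%), and 12 had an unadjusted p under 0.05, as did 3803 of all 20216 genes. DESeq2 called 8 of the 34 (background 7.44%): Bhlhe40 was higher at 14 dpa, and Slc2a1, Pfkl, Tpi1, Gapdh, Pkm, Slc16a3 and Car9 were lower. The log2 differences, 14 dpa over 12 dpa, were -2.88 for Car9 (SE 0.584, DESeq2 adjusted p = 0.0001122), -1.66 for Slc16a3 (SE 0.306, adjusted p = 1.12e-05), -0.67 for Slc2a1 (SE 0.224, adjusted p = 0.0341) and -0.61 for Gapdh (SE 0.156, adjusted p = 0.00338). In CPM, the mutant libraries of 14 dpa all lay below those of 12 dpa for 9 of 34 genes (background 11.8%), namely Slc2a1, Pfkl, Tpi1, Gapdh, Pgk1, Pkm, Slc16a3, Car9 and Car12. For 4 they all lay above (background 12.5%), namely Bnip3l, Vhl, Bhlhe40 and Mxi1. The summed neutrophil markers in mutants stood at 119 to 231 TPM at 14 dpa and at 1126 to 2075 TPM at 12 dpa. Of the 9 tested, edgeR called 1 lower at 14 dpa (background 0.0346%), and 7 changes were negative and 2 positive. The part of these markers in the differences above was not tested. Within wild type, no member passed by edgeR (background 0%) or by DESeq2 (background 0.381%), with 2 libraries on each day, and 4 had an unadjusted edgeR p under 0.05, as did 1654 of all 20216 genes.

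Genes of the same pathways outside the 34 gave a mixed picture. Of 32 other glycolysis and pyruvate genes, 27 were tested over both days, 6 were higher, 6 were lower and 15 did not pass, with a median log2 fold change of 0.13. The share called was 44.4%, against 43.7% of all genes. Pfkfb3, which makes the activator of phosphofructokinase, had 17.4, 16.6 and 14.4 CPM in mutants and 18.5 and 40.1 CPM in wild type at 12 dpa, and 4.30, 9.23 and 6.82 CPM in mutants and 17.1 and 21.8 CPM in wild type at 14 dpa. Each mutant library lay below the wild type libraries of its day, with a change of -1.19 (SE 0.251, adjusted p = 0.00567). The monocarboxylate transporter gene Slc16a7 was lower by -1.74 (SE 0.355, adjusted p = 0.00453), a call lost with limma on log2(TPM + 1) (adjusted p = 0.0738), and the glucose transporter gene Slc2a4 (GLUT4) was higher by 1.18 (SE 0.272, adjusted p = 0.00699). Gapdhs, known as the sperm form of Gapdh, was higher by 1.28 (SE 0.216, adjusted p = 0.00166) at no more than 3.03 CPM.

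Of 31 further hypoxia genes, 30 were tested, with 9 higher, 9 lower and 12 not passing, and a median of 0.02. The share called was 60.0%, against 43.7% of all genes, 21.5% higher and 22.2% lower. Plod2, a collagen lysyl hydroxylase, had 10.1, 9.10 and 18.4 CPM in mutants and 47.0 and 51.4 CPM in wild type at 12 dpa, and 2.81, 9.99 and 5.73 CPM in mutants and 49.6 and 32.2 CPM in wild type at 14 dpa. The groups were far apart, with a change of -2.35 (SE 0.346, adjusted p = 0.00134). Lox, a lysyl oxidase (-1.45, SE 0.471, adjusted p = 0.0381, and 0.103 without a count filter), and Ak4, a mitochondrial adenylate kinase (-1.24, SE 0.189, adjusted p = 0.00117), were also lower, and the nuclear receptor gene Rora was higher (1.13, SE 0.203, adjusted p = 0.00218). Plod2 and Lox act on collagen, and 12 of 14 fibroblast markers were lower in the same libraries; their part in these changes was not tested. Of 22 genes of the pyruvate dehydrogenase complex and the tricarboxylic acid cycle, 9 were higher, none was lower by edgeR and 13 did not pass (40.9% called, against 21.5% higher and 22.2% lower of all genes), with a median of 0.21 against 0.02 over all genes. The 4 with the largest changes were Suclg2 (0.51, SE 0.085, adjusted p = 0.00158), Cs, citrate synthase (0.46, SE 0.121, adjusted p = 0.0133), Sdha (0.44, SE 0.104, adjusted p = 0.00806) and Idh3g (0.43, SE 0.072, adjusted p = 0.00164). The count of higher cycle genes was 15 with limma on log2(TPM + 1), where the list's median was 0.47 and that of all genes 0.139, and under upper quartile scaling it was 8, with 1 lower.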

How the data were processed

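Expected counts and TPM per gene and library were deposited by the authors, in RSEM's column layout per the file headers. The counts were unnormalized and TPM are scaled by gene length. Build GRCm39 and the tools RSEM 1.3.0, STAR 2.7.8a and FastQC stand in the submitters' processing notes. Of the deposited expected counts 13.9% were not whole. A deposited TPM table of 21729 protein-coding genes gave the names and equalled the library files. Groups and replicate numbers came from titles; the descriptions number the wild type 14 dpa libraries in the opposite order. Counts were rounded and tested over all 10 libraries with edgeR 4.0.16 (R 4.3.3; filterByExpr, minimum count 10, minimum total 15; TMM; robust quasi-likelihood; no covariate), with Benjamini-Hochberg adjustment over 20216 genes and a threshold of 0.05. The biological coefficient of variation was 0.277. CPM use TMM-scaled totals. The alternatives were DESeq2 1.42.0, limma 3.58.1 on log2(TPM + 1) or log2(TPM + 0.1), other scalings and filters, a replicate block, a sex covariate, the genotype tag and leaving out each library. The edgeR fit was tested on simulated counts for the genotype contrast over both days, and the other fits and contrasts were not. The members and lists were chosen with earlier results of these data known. Each of the 34 genes is described; values per library follow size and role, and companion lists give their 4 largest called changes without overlap. The labels do not say whether libraries came from separate animals, so p-values reflect only how these libraries vary, in part perhaps technically. Libraries were made with a stranded kit, per the labels' protocols. The strand used in counting was not given in the sources used here. Members with counts that were never whole (13, among them Gapdh, Pkm, Ldha, Aldoa and Hif1a) share reads with other genes and are uncertain to that extent. Promoter sequences and their coordinates are those of RefSeq on GRCm38.p6.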

Additional observations from a re-analysis of the deposited data

How the results depend on the processing

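Over both days 15 of the 34 genes passed, and 10 to 19 passed under the alternatives that kept all libraries in their groups. Placing the tagged library, mutant 14 dpa replicate 1, in wild type left 0 calls in each genotype contrast and 0 among all genes, of 8843. At 12 dpa, with 4 calls, the count was 7 with limma at either TPM pseudocount and 1 with the replicate block; at 14 dpa, with 15 calls, the block gave 5. In mutants between days, with 0 calls, DESeq2 gave 8, limma 6 with a pseudocount of 1 and 7 with 0.1; for the difference between days DESeq2 gave 1. Over all genes a CPM of 1 in every library gave 5314 and the block 5444. With the block 3 tricarboxylic acid cycle genes were higher in place of 9. The block ended the calls of Gpi1, Pfkl, Tpi1, Pgam1 and Pdk1 over both days. The labels state no pairing of same-numbered libraries, and their deviations from group means had correlations of -0.042 to 0.077. With 2 wild type libraries per day, the deviations of those 2 mirror each other, so these values cannot exclude a pairing. Leaving out 1 library gave 9 to 17 over both days, 1 to 5 at 12 dpa, 5 to 15 at 14 dpa, 6769 to 8797 among all genes and 0 in the day contrasts. Over both days the signs that changed were of genes not called; at 14 dpa the called Epas1 turned to -0.0478 with the tagged library in wild type. Under the strict filter these were Eno1 (-0.0101), Pkm (-0.0243) and Ndrg1 (-0.0139). On log2(TPM + 1) they were Slc2a1 (0.29), Hk2 (0.23), Gapdh (0.21), Ldha (0.0437), Ankrd37 (0.0251) and Higd1a (0.0632), and with 0.1 Slc2a1 (0.30), Hk2 (0.25), Gapdh (0.21), Ldha (0.0437), Ankrd37 (0.0329) and Higd1a (0.0637). The block gave Slc2a1 0.11 and Hk2 0.0691, and the tag Slc2a1 0.0675, Gapdh 0.0153 and Eno1 -0.011. Leaving out libraries moved Slc2a1 between -0.17 and 0.19, Hk2 between -0.20 and 0.22 and Ndrg1 between -0.0303 and 0.24. Over the single genes and all alternatives, 586 values kept call and direction, 65 lost a call, 30 gained one and 31 changed sign. The cause was not tested. Low counts limit Car9 and Hif3a.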

Other observations

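Reads of Xist set 1 library apart from its sex: wild type 14 dpa replicate 1, male by its Y-linked counts, had 1292 Xist counts, against 11 to 46 in the other male libraries and 56783 to 133462 in the female libraries. No result above was tested for it.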
